A study of Mus musculus with 33 samples.

Results

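The interferon response and MHC class I module described here consists of 35 named genes of the mouse. They code for the class I chains that carry peptides to the cell surface, the machinery that supplies and loads those peptides, the transcription factors of the interferon response and a set of genes that interferon induces. Members are a list of symbols, named with earlier results of these data known and without a threshold on their values, from the 47729 genes of the count tables, of which 32488 had any count and 18150 were tested. All 35 were tested. Psmb9, Mx1 and Isg15 passed the filter on low counts only through cone cultures at day 35, and Psmb8, Ifit1, Rsad2 and Rtp4 only through cone cultures.

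Interferons are secreted proteins that bind receptors on the same or neighbouring cells. Type I interferon receptors act through the kinases JAK1 and TYK2, and STAT2 and IRF9 are parts of the factor that then binds interferon-stimulated response elements (ISREs) in the promoters of target genes. Interferon gamma acts on gamma-activated sites (GAS) and through IRF1, and it is the usual inducer of the immunoproteasome and of MHC class I. MHC class I molecules show peptides from inside the cell to cytotoxic T cells, and neurons and retinal cells are known for holding them at low levels.

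Counts came from 33 libraries of mouse retinal progenitor cells (RPCs), the dividing cells from which retinal neurons and Muller glia arise, of C57BL/6J embryos at day 14. There were 11 groups of 3 libraries. At day 0 the cells were untreated, cone primed with COCO protein, which blocks extracellular TGF-beta, Wnt and BMP ligands, or rod primed with taurine and retinoic acid. At days 5, 12, 21 and 35 there were cone cultures and rod cultures, and no untreated culture was sampled after day 0. The time for which each factor stayed in the medium is not given in the sources used here, and neither is the origin of the 3 libraries of a group, so p-values measure only the spread between these samples, which may be technical.

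Genes took 7511837 to 19166442 counts per library, with a median of 12985662. Levels are given in CPM, counts brought by edgeR to a common library size. A gene without counts in 1 library may still have up to 3, or 0.174 to 0.407 CPM. CPM is not corrected for gene length, so levels are compared between samples and not between genes. Library 2 of the rod cultures at day 12 stood apart: its summed CPM over 13 photoreceptor markers was 1306, against 79.6 and 166 in the other two. At day 35 the photoreceptor markers summed to 13.0 to 43.8 CPM in cone cultures and 11.5 to 18.3 CPM in rod cultures, against 911 to 1234 CPM in untreated cells. Mitochondrial genes took 8.24% to 14.2% of gene counts in cone cultures at day 35 and 14.8% to 20.5% in rod cultures, ranges that do not overlap, and the part of this difference in the results at that day was not tested.

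The module lies on 14 chromosomes, with 8 of the 35 genes on chromosome 17, where the class I region is. RefSeq promoter windows on GRCm38.p6, from 250 bases before to 50 bases after each start site, were matched to 29 members. The ISRE, searched on both strands as GAAA, any 2 bases and GAAA again, was present in 15 of the 29 (51.7%), against 3.99% of the 27025 genes in the table. It was present in 6 of 8 matched antiviral effectors, in 5 of 5 interferon-inducible GTPases, in 2 of 4 class I chains and in 0 of 5 genes of peptide supply. The GAS, searched as TTCNNNGAA, was in 27.6% of members against 9.55% of all genes, and the CCAAT box ATTGG in 48.3% against 41.1%. A match is a description of letters and not of binding. The sequences below are from members on which the results turn, with capitals for the ISRE or its reverse complement, each written 5′ to 3′ on the strand of its gene. The windows of B2m, Stat2 and Gbp7 held 1 match, those of Ifit1 and Ifit3 held 2 that do not overlap (for Ifit3 the second lies outside the stretch shown), and those of Bst2 and Isg15 held 2 and 3 that overlap.
B2m (chr2:122147523-122147582, plus strand): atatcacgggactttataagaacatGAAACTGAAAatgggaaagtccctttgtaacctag
Stat2 (chr10:128270251-128270310, plus strand): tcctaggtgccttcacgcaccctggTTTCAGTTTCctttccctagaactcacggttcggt
Ifit1 (chr19:34640779-34640838, plus strand): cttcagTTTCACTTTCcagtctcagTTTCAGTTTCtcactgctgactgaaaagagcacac
Ifit3 (chr19:34583382-34583441, plus strand): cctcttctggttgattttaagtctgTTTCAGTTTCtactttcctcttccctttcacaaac
Bst2 (chr8:71537562-71537621, minus strand): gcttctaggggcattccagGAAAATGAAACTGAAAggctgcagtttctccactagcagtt
Isg15 (chr4:156200850-156200909, minus strand): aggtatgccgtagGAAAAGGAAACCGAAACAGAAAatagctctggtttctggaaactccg
Gbp7 (chr3:142530258-142530317, plus strand): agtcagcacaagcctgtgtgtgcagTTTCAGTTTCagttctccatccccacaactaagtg
No base of these stretches lay in an annotated exon. The windows of Oasl2, H2-K1, Irf7 and Xaf1 held no ISRE, which says only that these letters are not in those windows.

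The summed level of the module was higher at later days of culture, and from day 12 on it was higher in cone than in rod cultures. Summed over the 35 genes, the 3 untreated libraries held 57.7 to 71.1 CPM, the cone primed libraries 54.1 to 64.6 CPM and the rod primed libraries 80.0 to 86.2 CPM. Cone cultures held 83.5 to 113 CPM at day 5, 303 to 350 CPM at day 12, 512 to 691 CPM at day 21 and 977 to 1503 CPM at day 35. Rod cultures held 85.5 to 98.8 CPM, 189 to 277 CPM, 252 to 363 CPM and 429 to 542 CPM on the same days. The sums of the 2 conditions overlapped at day 5 and were apart from day 12 on. Every member had its highest group mean in cone cultures at day 35. In bulk RNA, a change in the number of cells that express a gene and a change in its RNA per cell cannot be told apart.

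**Figure D1:**
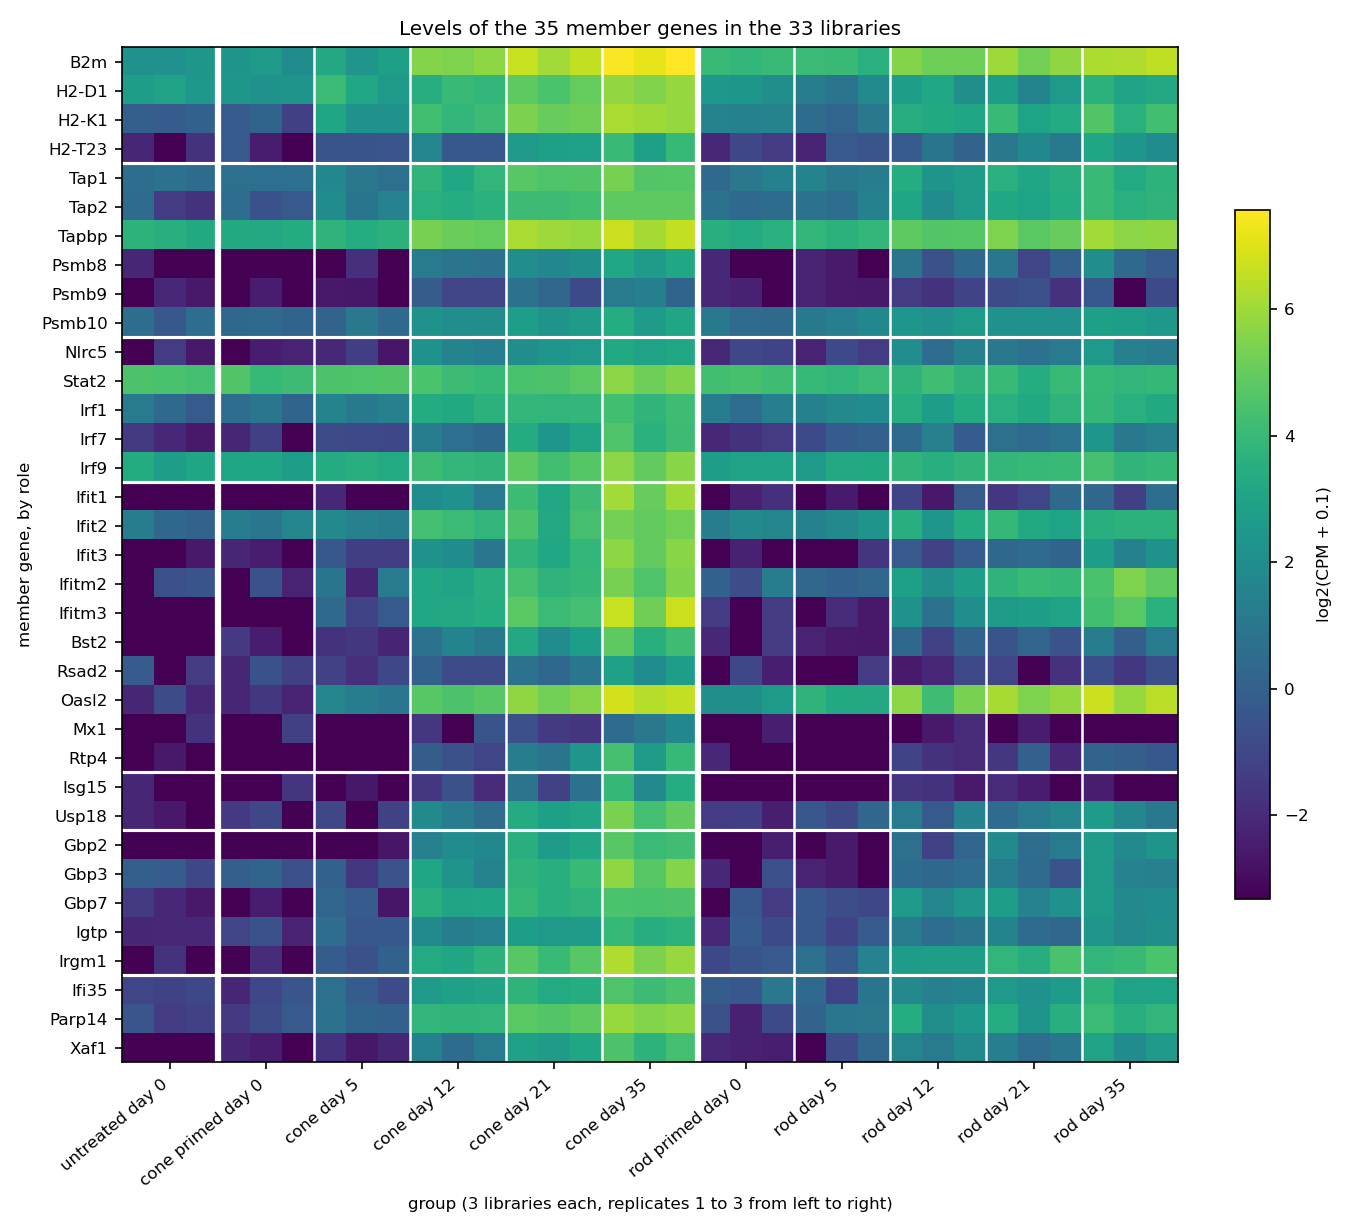
Level of each of the 35 members (rows, ordered by role) in each of the 33 libraries (columns, ordered by group and day), as the colour of log2(CPM + 0.1). Both conditions brighten from day 12, and the 3 cone libraries at day 35 are the brightest columns, with sums of 977 to 1503 CPM.

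Against their own primed cells, nearly all members rose in both conditions. In cone cultures 8 of 35 members were called higher at day 5, where 22.3% of all genes tested were called (12.2% higher, 10.2% lower). There were 31 at day 12 (48.4% of all genes, 26.7% higher and 21.7% lower), 33 at day 21 (52.6%, 29.4% higher and 23.2% lower) and 35 at day 35 (57.7%, 31.1% higher and 26.5% lower). None was called lower on these days. The 35 at day 35 include the members that passed the filter on low counts only through cone cultures. At day 35 the median log2 fold change of the members was 6.46 (6.32 with genes at the floor set to their bound), against 0.03 over all genes tested. No median without the members that passed only through cone cultures is given. In rod cultures 4 members were called higher at day 5 (17.5% of all genes called, 8.76% higher and 8.79% lower) and 27 at day 12 (42.4%, 24.2% higher and 18.2% lower). At day 21, 29 were higher and 1 lower (50.8%, 27.2% higher and 23.6% lower), and at day 35, 30 were higher (55.6%, 29.4% higher and 26.2% lower). The median over the members at day 35 in rod cultures was 3.30. These comparisons share the day 0 libraries within each condition. At day 5 in rod cultures, 1 member was called without rod primed library 2 and 2 without rod primed library 3.

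The direct comparison of cone with rod cultures moved from mixed at day 5 to higher in cone cultures at days 21 and 35. At day 5, 5 members were higher and 4 lower in cone cultures (9.28% of all genes called, 3.48% higher and 5.80% lower). At day 12, 11 were higher and 0 lower (10.1%, 5.98% higher and 4.12% lower). At day 21, 24 were higher and 0 lower (9.00%, 5.86% higher and 3.14% lower), and at day 35, 30 were higher and 0 lower (12.3%, 7.77% higher and 4.51% lower). The 30 include Psmb9, Mx1 and Isg15, which passed the filter on low counts only through cone cultures at day 35. They also include Psmb8, Ifit1, Rsad2 and Rtp4, which passed it only through cone cultures. For these members the filter and the call use the same counts, so their calls are no separate support. The median log2 difference over the members was 0.81 at day 12, 1.60 at day 21 and 1.82 at day 35, where the median of all genes was 0.02. No median without the members that passed the filter only through cone cultures is given, so the medians share this limit. Over the mean of days 5 to 35, 23 members were higher and 1, Oasl2, lower in cone cultures (27.8% of all genes called, 15.6% higher and 12.2% lower).

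Counts at the 2 early days depended on single libraries. At day 5 the count of 9 members was 4 without cone library 1 or without cone library 3, and 5 without rod library 2. In that comparison 7 of 8 cell cycle genes were lower in cone cultures (5.80% of all genes tested), and the part of this in the result was not tested. At day 12 the count of 11 was 4 without cone library 3, 5 without rod library 2 or rod library 3 and 7 without cone library 1, and 0 were called when the fit used only the libraries of that day, where the calls over all genes went from 1833 to 345. Leaving out any library gave 18 to 23 called members at day 21 and 25 to 30 at day 35.

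**Figure D2:**
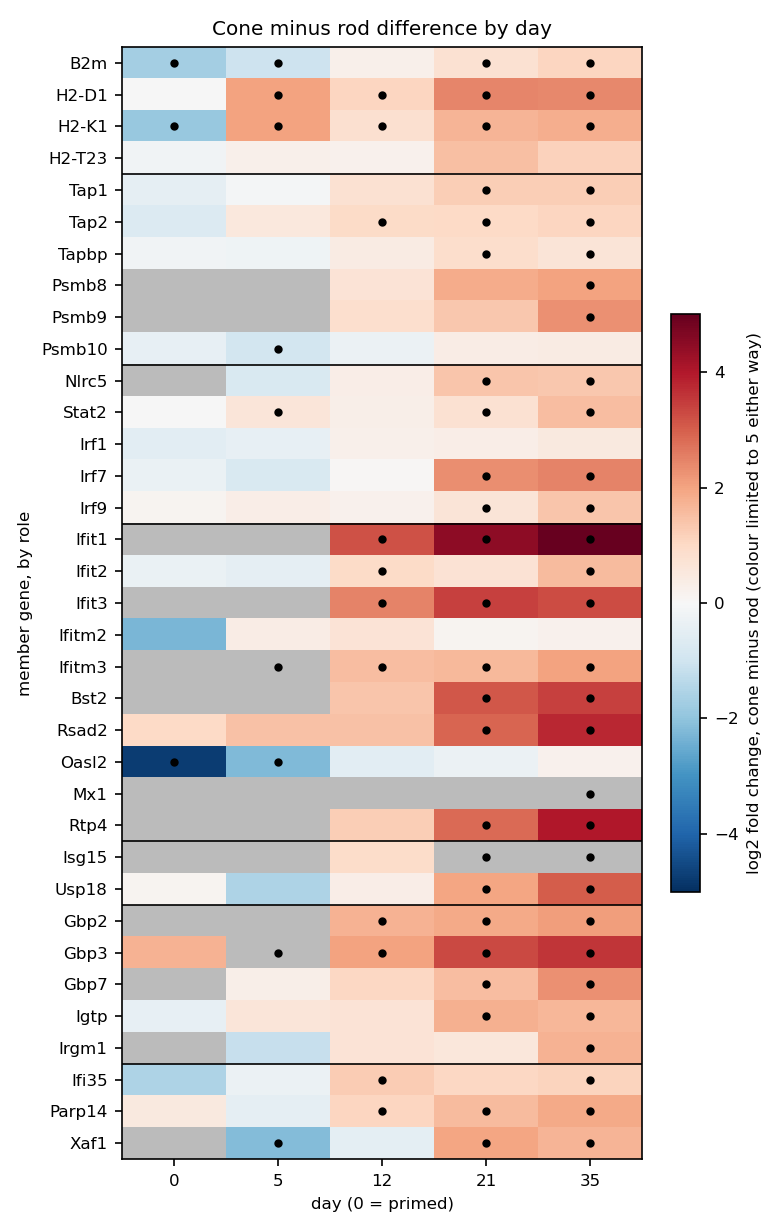
Log2 difference between cone and rod cultures (cone primed and rod primed cells at day 0) for each member (rows) at days 0, 5, 12, 21 and 35 (columns), with colour limited at 5 in either direction. A black dot marks an adjusted p under 0.05 (77 cells), and grey cells have too few counts for a fold. The red cells of days 21 and 35 cover all roles, while B2m and Oasl2 are blue at days 0 and 5.

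Of the 4 class I chains, B2m and H2-K1 were called higher under rod priming, and B2m, H2-K1 and H2-D1 were higher in cone than in rod cultures at day 35. B2m (ENSMUSG00000060802, chr2:122147686-122153083, plus strand) codes for beta-2 microglobulin, the light chain of every class I molecule. It was at 4.61, 4.40 and 5.30 CPM in untreated cells, at 4.91, 5.66 and 3.77 CPM in cone primed cells and at 16.3, 14.5 and 16.4 CPM in rod primed cells. Rod primed libraries were thus all above the other day 0 libraries. The log2 fold change of rod primed over untreated cells was 1.72 ± 0.23 (SE, adjusted p = 1.02e-05). At day 5 the rod cultures, at 16.8, 15.9 and 11.9 CPM, were above the cone cultures, at 9.42, 5.05 and 7.09 CPM (cone minus rod -1.05 ± 0.21, adjusted p = 0.00178). The order was reversed at day 21 and day 35. Cone libraries held 182, 143 and 189 CPM at day 35 and rod libraries 74.8, 76.2 and 91.0 CPM, without overlap. That difference was 1.09 ± 0.19 on the log2 scale (adjusted p = 0.000298), and from primed cells to day 35 B2m rose by 5.15 ± 0.24 in cone cultures (adjusted p = 4.82e-15) and by 2.36 ± 0.21 in rod cultures (adjusted p = 4.14e-10). At day 21 the difference was 0.76 ± 0.19 (adjusted p = 0.0117), a call lost without any 1 of 3 libraries (cone 1, cone 3 or rod 2).

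H2-K1 and H2-D1 code for classical heavy chains, the part of the class I molecule that binds the peptide. H2-K1 (ENSMUSG00000061232, chr17:33996017-34000333, minus strand) was at 0.895, 0.800 and 0.951 CPM in untreated cells and at 2.85, 2.62 and 2.78 CPM in rod primed cells (log2 fold change 1.63 ± 0.38, adjusted p = 0.0063). At day 5 it had changed order, with 8.55, 4.62 and 4.71 CPM in cone cultures and 1.35, 1.07 and 1.94 CPM in rod cultures, 2.01 ± 0.32 higher in cone cultures (adjusted p = 0.000147). H2-K1 and B2m therefore differed between the conditions in opposite directions on the same day and in the same libraries. By day 35 H2-K1 held 73.0, 64.4 and 57.8 CPM in cone cultures and 24.2, 11.8 and 19.1 CPM in rod cultures (1.82 ± 0.26, adjusted p = 2.24e-05). H2-D1 was at 5.57 to 7.54 CPM in untreated cells, and its 3 cone libraries at day 35 held 55.5, 45.8 and 57.5 CPM against 12.7, 7.68 and 9.36 CPM in rod cultures. H2-D1 overlapped between the primed groups and was higher in cone cultures at days 5, 12, 21 and 35, by 2.01 ± 0.35 at day 5 and 2.41 ± 0.32 at day 35 (adjusted p = 0.000477 and 1.07e-05). H2-T23, a non-classical chain, rose in both conditions to 16.3, 7.13 and 15.7 CPM in cone cultures and 8.50, 5.17 and 3.87 CPM in rod cultures, and the libraries overlapped (1.16 ± 0.50, adjusted p = 0.135). Reads from class I genes that are near-identical in sequence may have been split or misplaced by the authors' counting, so single heavy chains are uncertain.

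Of the 6 genes that supply and load peptides, 5 were higher in cone than in rod cultures at day 35. Tap1 and Tap2 code for the transporter that moves peptides into the endoplasmic reticulum, and Tapbp for tapasin, which holds the empty class I molecule at it. Tap1 went from 1.41, 1.60 and 1.36 CPM in untreated cells to 40.5, 25.2 and 26.1 CPM in cone cultures and 15.9, 10.0 and 12.9 CPM in rod cultures at day 35 (cone minus rod 1.24 ± 0.26, adjusted p = 0.00211). Tap2 held 29.1, 28.7 and 29.1 CPM in cone cultures at day 35 and 15.9, 11.8 and 13.5 CPM in rod cultures, without overlap. Tapbp was already at 9.64 to 12.9 CPM in untreated cells and reached 67.6 to 103 CPM in cone cultures and 50.2 to 66.6 CPM in rod cultures. Tapbp overlaps Zbtb22 on the same strand, so part of its counts may belong to that gene. Tap1 and Psmb9 overlap on opposite strands, and the strand setting of the counting is not given in the sources used here, so their reads cannot be told apart there.

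Psmb8, Psmb9 and Psmb10 code for the catalytic subunits of the immunoproteasome, which replace the constitutive ones and favour peptides for class I. Psmb8 had 1 count over the untreated and 0 over the cone primed libraries, and at day 35 held 8.88, 6.44 and 8.80 CPM in cone cultures and 3.99, 1.21 and 0.775 CPM in rod cultures. Cone cultures at day 35 were at least 80.0-fold higher than day 0 cone cells, and the difference was 2.03 ± 0.57 over rod cultures on the log2 scale (adjusted p = 0.0188). Psmb9 held 2.05, 2.49 and 1.05 CPM in cone cultures at day 35 and 0.680, 0 and 0.452 CPM in rod cultures. It passed the filter only through the cone cultures of that day, and Psmb8 only through cone cultures. Psmb10 was detected throughout, at 0.667 to 1.43 CPM in untreated cells, rose in both conditions and did not pass the test between them at day 35 (0.40 ± 0.25, adjusted p = 0.341). The calls of Psmb8 and Psmb9 between the conditions at day 35 were lost without any 1 of 4 and any 1 of 2 libraries (Psmb8 without cone 1, cone 3, rod 2 or rod 3, with adjusted p up to 0.106; Psmb9 without cone 2 or rod 2). The constitutive counterpart of Psmb8, Psmb5, gave log2 fold changes from day 0 to day 35 of -0.04 ± 0.22 in cone and -0.34 ± 0.22 in rod cultures (adjusted p = 0.887 and 0.194).

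The transcription factors differed in when they moved. Nlrc5, the transactivator of class I genes, had 5 counts over the untreated libraries and at day 12 was at 4.78, 2.87 and 2.47 CPM in cone cultures and 4.00, 1.36 and 2.60 CPM in rod cultures, which overlapped. At day 35 it held 9.81, 7.73 and 9.12 CPM in cone cultures and 5.69, 2.59 and 2.26 CPM in rod cultures (1.35 ± 0.40, adjusted p = 0.0269). That call was lost without any 1 of 4 libraries (cone 1, cone 3, rod 2 or rod 3, with adjusted p up to 0.143). Irf1, an early target of interferon gamma, rose in both conditions to 19.0, 13.9 and 17.8 CPM in cone cultures and 15.0, 11.9 and 9.55 CPM in rod cultures, and did not pass the test between them (0.48 ± 0.24, adjusted p = 0.223).

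Stat2, Irf9 and Irf7 belong to the type I branch, the first 2 as parts of the factor that binds the ISRE and Irf7 as an amplifier of it. Stat2 (chr10:128270576-128292849, plus strand) was well detected before culture, at 23.2, 21.5 and 19.8 CPM in untreated cells, and stayed between 15.8 and 27.4 CPM in cone cultures up to day 21. At day 35 it held 50.7, 36.2 and 44.8 CPM in cone cultures and 15.5, 14.2 and 15.3 CPM in rod cultures. Cone was thus above rod without overlap, by 1.55 ± 0.17 (adjusted p = 1.05e-06), and Stat2 rose by 1.21 ± 0.17 in cone cultures from day 0 while it had a log2 fold change of -0.37 ± 0.17 in rod cultures (adjusted p = 0.0733). Stat2 was the member called lower in rod cultures at day 21 (-0.46 ± 0.17, adjusted p = 0.0283), a call lost without rod primed library 1 or 2 or rod day 21 library 2. Irf9 went from 10.4, 6.74 and 8.56 CPM in untreated cells to 51.0, 30.8 and 48.7 CPM in cone cultures and 20.3, 13.8 and 15.2 CPM in rod cultures (1.40 ± 0.20, adjusted p = 2.1e-05). Irf7 had 5 counts over the untreated libraries and reached 23.8, 12.4 and 17.5 CPM in cone cultures and 5.10, 1.94 and 2.58 CPM in rod cultures at day 35 (2.49 ± 0.40, adjusted p = 9.99e-05). Irf9 overlaps Rnf31 on the same strand and Irf7 overlaps Phrf1 on the opposite strand, so part of their counts may belong to those genes.

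**Figure D3:**
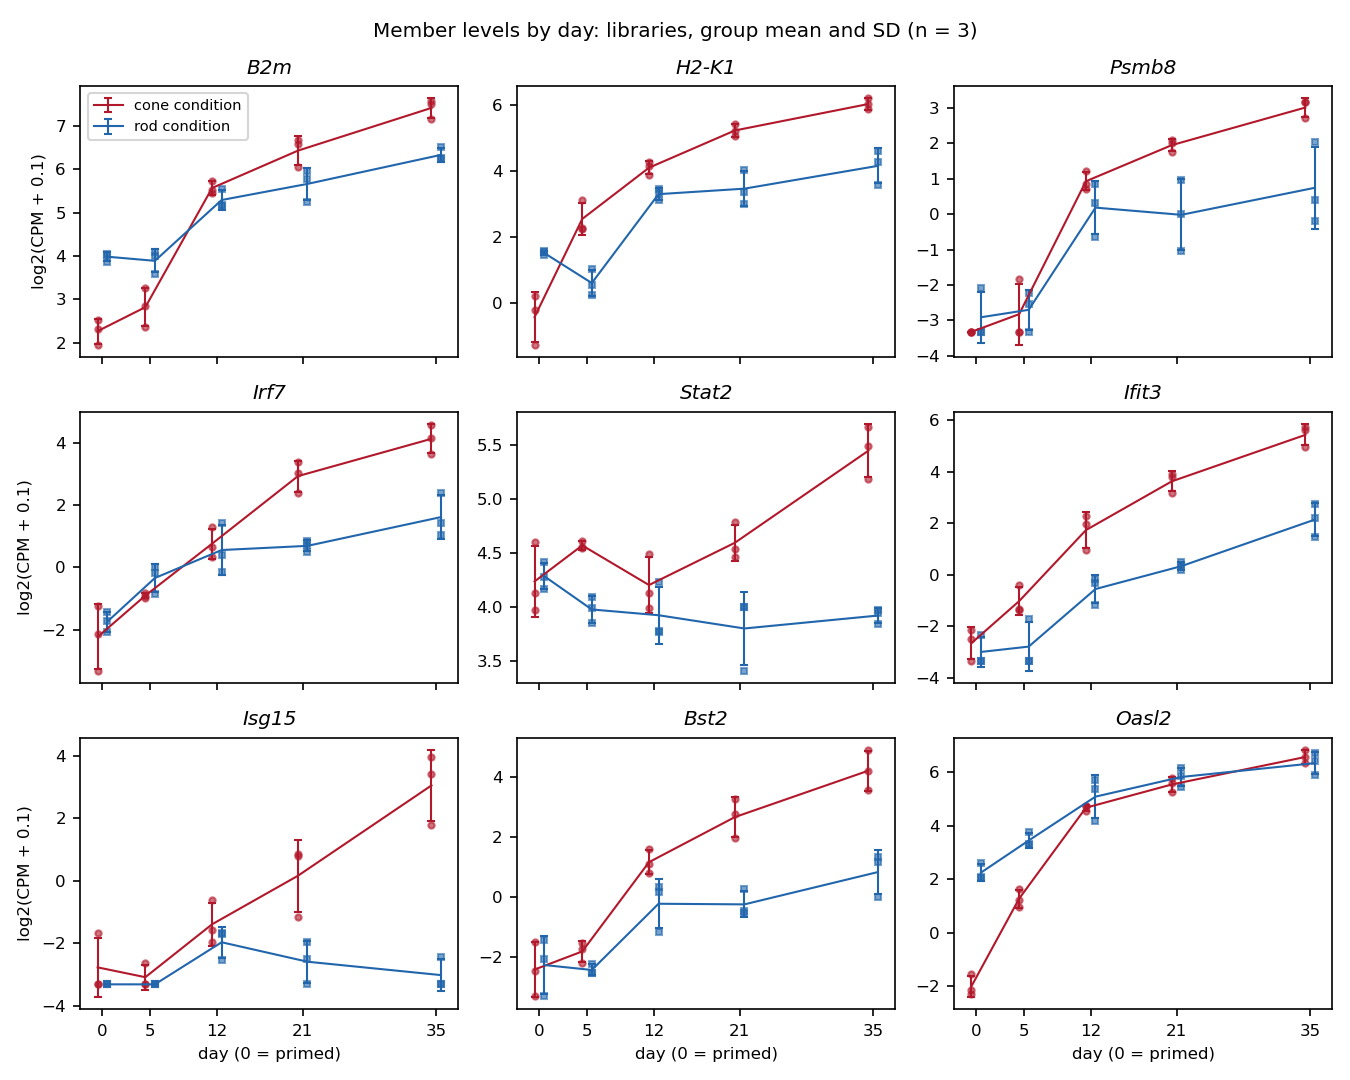
Levels of 9 members by day of culture on the log2(CPM + 0.1) scale, with 1 point per library, lines through the means and bars of 1 SD (n = 3) for the cone (red) and rod (blue) conditions, day 0 being primed cells. B2m and Oasl2 start higher in rod primed cells, Oasl2 overlaps between the conditions from day 12 on, and Isg15 reaches 3.35 to 15.3 CPM in cone cultures at day 35.

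Among the 10 RNA-binding and antiviral effectors, 8 were higher in cone than in rod cultures at day 35. Ifit1 and Ifit3 code for proteins that bind foreign RNA, and Ifit1 had the largest fitted difference of the module. Ifit1 (chr19:34640871-34650009, plus strand) had 0 counts over the untreated and the cone primed libraries. It held 3.85, 4.43 and 2.24 CPM in cone cultures at day 12, 17.3, 9.25 and 17.4 CPM at day 21 and 66.7, 32.6 and 64.6 CPM at day 35. Rod cultures held 1.19, 0.323 and 1.42 CPM at day 35, below every cone library of that day. The log2 difference was 5.77 ± 0.55 (adjusted p = 3.64e-07), and against cone primed cells Ifit1 was at least 544-fold higher at day 35. Ifit1 passed the filter only through cone cultures. Ifit3 followed with 52.8, 31.2 and 48.9 CPM in cone cultures against 6.63, 2.67 and 4.58 CPM in rod cultures (3.26 ± 0.38, adjusted p = 1.55e-06). Ifit3 and Ifit1 were also among the few members higher in cone cultures at day 12, by 2.46 ± 0.46 and 3.17 ± 0.62 (adjusted p = 0.000699 and 0.00156). Ifit2, in contrast, was detected at 1.02 to 2.30 CPM in untreated cells and reached 38.7, 31.2 and 38.1 CPM in cone cultures and 11.2, 12.8 and 12.5 CPM in rod cultures.

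Bst2 codes for tetherin, which holds budding viruses at the cell surface, and Rsad2 for viperin, an enzyme that stops viral RNA synthesis. Bst2 was at 29.3, 11.5 and 18.0 CPM in cone cultures at day 35 and at 2.38, 0.889 and 2.13 CPM in rod cultures (3.43 ± 0.46, adjusted p = 1.75e-05). Its cone libraries were apart from the rod libraries at day 21 too (3.10 ± 0.49, adjusted p = 0.000193). Rsad2 was at 7.34, 3.78 and 6.70 CPM in cone cultures and did not pass the test against day 0 in rod cultures, which held 0.243 to 0.516 CPM at day 35. Rtp4, an inhibitor of viral replication, was at 20.2, 6.18 and 15.4 CPM in cone cultures and 1.02, 0.889 and 0.710 CPM in rod cultures (3.99 ± 0.58, adjusted p = 8.4e-05). Mx1 had 78 counts in cone cultures at day 35 and 0 in rod cultures. It held 1.28, 1.89 and 3.31 CPM in cone libraries and was at least 28.5-fold higher there (adjusted p = 0.000747). Mx1 passed the filter only through cone cultures at day 35, and Rsad2 and Rtp4 only through cone cultures.

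The interferon-induced transmembrane proteins, which block the entry of viruses, did not move alike. Ifitm3 had 0 counts over the untreated and cone primed libraries and at day 35 held 102, 36.4 and 102 CPM in cone cultures and 19.4, 27.4 and 12.3 CPM in rod cultures. Against cone primed cells this was at least 796-fold higher, and it rose by 6.72 ± 0.65 in rod cultures from rod primed cells (adjusted p = 9.45e-09). Ifitm2 rose in both conditions, to 40.2, 23.4 and 45.2 CPM in cone cultures and 21.5, 43.5 and 30.0 CPM in rod cultures, and the libraries overlapped (0.20 ± 0.42, adjusted p = 0.833). These genes are near-identical neighbours in sequence, and their counts are uncertain for that reason.

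Oasl2, a relative of the enzymes that sense double-stranded RNA, went its own way. It was at 0.128, 0.467 and 0.136 CPM in untreated cells, 0.126, 0.243 and 0.105 CPM in cone primed cells and 4.07, 4.13 and 6.02 CPM in rod primed cells. Rod primed cells were 4.13 ± 0.51 above untreated cells on the log2 scale (adjusted p = 3.79e-06) and cone minus rod primed cells gave -4.76 ± 0.59 (adjusted p = 4.39e-06), 2 comparisons that share the rod primed libraries. At day 5 it was at 3.01, 2.25 and 1.86 CPM in cone cultures and 13.6, 9.80 and 9.51 CPM in rod cultures (-2.20 ± 0.32, adjusted p = 5.11e-05). The groups overlapped from day 12 on, and at day 35 the cone libraries held 113, 80.5 and 93.9 CPM and the rod libraries 105, 59.1 and 85.5 CPM (0.20 ± 0.26, adjusted p = 0.692). From primed cells to day 35 Oasl2 rose by 9.08 ± 0.48 in cone cultures and by 4.11 ± 0.32 in rod cultures (adjusted p = 3.44e-14 and 4.92e-11).

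Isg15 and Usp18 form a pair, a ubiquitin-like protein that is joined to other proteins and the protease that removes it and also damps the receptor. Isg15 (chr4:156199424-156200818, minus strand) had 1 count over the untreated libraries, 2 over the cone primed and 0 over the rod primed libraries. In cone cultures it held 1.71, 0.342 and 1.63 CPM at day 21 and 15.3, 3.35 and 10.6 CPM at day 35, 349 counts in all, while the rod cultures at day 35 had 1 count. The ratio of cone to rod at day 35 was 387, with a 95% counting interval of 69.0 to 15320 (adjusted p = 8.87e-06). Isg15 passed the filter only through this cone group, so the filter and this p-value use the same counts. The 3 cone libraries of day 35 held 349 of the 414 Isg15 counts of all libraries. Usp18 reached 42.0, 19.8 and 31.1 CPM in cone cultures and 6.37, 3.23 and 1.94 CPM in rod cultures (3.02 ± 0.50, adjusted p = 0.000142).

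All 5 interferon-inducible GTPases, which attack the membranes around intracellular microbes, were higher in cone than in rod cultures at day 35. Gbp2 had 0 counts over the untreated and cone primed libraries and held 26.7, 17.3 and 18.8 CPM in cone cultures and 6.20, 3.64 and 4.84 CPM in rod cultures at day 35 (2.09 ± 0.38, adjusted p = 0.000712). Against cone primed cells the cone cultures were at least 208-fold higher. Gbp3 held 53.7, 27.0 and 47.3 CPM in cone cultures and 5.61, 2.75 and 2.58 CPM in rod cultures (3.55 ± 0.44, adjusted p = 4.51e-06). Irgm1 held 76.6, 42.7 and 59.7 CPM against 14.3, 16.7 and 22.2 CPM (1.75 ± 0.31, adjusted p = 0.000351), and it was the only GTPase called in rod primed over untreated cells, at 17 against 3 counts (ratio 7.48, 95% counting interval 2.16 to 39.8, adjusted p = 0.0469). Gbp7 and Igtp were at 21.5 to 22.6 CPM and 10.9 to 15.5 CPM in cone cultures and 3.40 to 6.29 CPM and 3.40 to 5.01 CPM in rod cultures. The Gbp genes are similar in sequence and Igtp overlaps Irgm2 on the same strand, so counts between them are uncertain.

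The last 3 members were also higher in cone than in rod cultures at day 35. Parp14, an ADP-ribosyltransferase, held 58.2, 47.0 and 52.9 CPM in cone cultures and 17.0, 11.2 and 14.1 CPM in rod cultures, and rose by 6.69 ± 0.42 and 5.28 ± 0.45 from primed cells (adjusted p = 4.62e-13 and 2.08e-10). Xaf1, a partner of the apoptosis inhibitor XIAP, held 23.0, 13.1 and 19.9 CPM against 7.73, 3.72 and 5.75 CPM. Ifi35, an interferon-induced leucine zipper protein, held 23.5, 17.6 and 21.5 CPM against 13.2, 7.60 and 7.94 CPM, without overlap, a call lost without any 1 of 4 libraries (adjusted p up to 0.119).

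Priming for cones with COCO called none of the 35 members against untreated cells with edgeR or with DESeq2, and edgeR called 0.00% of all genes tested, where 200 had an unadjusted p under 0.05. Priming for rods with taurine and retinoic acid called 5 members, all higher (10.3% of all genes called, 6.71% higher and 3.56% lower): B2m, H2-K1, Tap2, Oasl2 and Irgm1. The calls of Tap2 and Irgm1 were lost without any 1 of 5 libraries (adjusted p up to 0.251 and 0.192), and 3 members were called without untreated library 3 or without rod primed library 3. Between the primed groups 3 members, B2m, H2-K1 and Oasl2, were lower in cone primed cells (7.27% of all genes called, 2.50% higher and 4.77% lower). In rod primed over untreated cells 8 of 10 Muller glia markers were higher, with a summed level of 2082 to 2523 CPM in rod primed cells against 922 to 1080 CPM in untreated cells. Of 8 cell cycle genes, 4 were higher in rod primed over untreated cells. Of the 18 microglia and macrophage markers tested, 0 were called. The part of the glial and cell cycle lists in the result was not tested.

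The cone minus rod difference itself changed over days 0, 5, 12, 21 and 35 for 18 of 35 members (F test of the edgeR fit, 9.22% of all genes called). B2m, Oasl2, H2-K1 and Stat2 had the smallest adjusted p-values, 1.07e-06, 5.11e-05, 5.96e-05 and 0.00107. B2m and Oasl2 were below rod at the start and not at the end, H2-K1 was below at day 0 and above from day 5, and Stat2 parted mainly at day 35.

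The interferon genes that were listed gave almost no reads. None of the 12 ligands listed passed the filter. The list includes the cytokines Il27, Tnf and Il6, and of the Ifna genes it holds only Ifna1, Ifna2 and Ifna4. Ifnb1, the first type I interferon made by most cells, had 0 counts in every group, as did Ifna1, Ifng, Ifnl2 and Ifnl3. A count of 0 over a group allows up to 0.0617 to 0.105 CPM, so ligands below that level were not detectable at this depth. The cytokine Il6, which signals through STAT3, had 41 counts in cone cultures at day 35, at 2.05, 0.0858 and 1.29 CPM, and 14 in rod cultures.

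Most interferon receptor genes rose with culture in both conditions. Of 6 receptor genes, 5 were higher at day 35 than at day 0 in each condition and 0 differed between cone and rod at day 35. Over all genes tested, 31.1% were called higher from day 0 in cone cultures and 29.4% in rod cultures, and 12.3% differed between them at day 35. Ifngr1, a chain of the interferon gamma receptor, rose by 2.30 ± 0.17 in cone cultures and by 2.35 ± 0.17 in rod cultures (adjusted p = 1.46e-11 and 2.28e-11), and Ifnar2, a chain of the type I receptor, by 2.63 ± 0.25 and 2.85 ± 0.25. Ifnar1, the other chain, had a log2 fold change of 0.19 ± 0.08 in each (adjusted p = 0.0515 and 0.0507). Stat3, which acts downstream of the Il6 receptor, rose by 2.29 ± 0.14 in cone and 2.60 ± 0.14 in rod cultures.

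Sensors of nucleic acids, which start interferon production, rose in part. Of 14 tested, 12 were higher at day 35 than at day 0 in cone cultures (31.1% of all genes tested) and 8 in rod cultures (29.4%). Between the conditions at day 35, 6 were higher in cone than in rod cultures (7.77% of all genes tested). Which sensors passed the filter on low counts only through cone cultures is not given here, and the calls of any that did are no separate support. Ddx58 and Ifih1, which code for the RNA sensors RIG-I and MDA5, differed by 1.40 ± 0.24 and 1.96 ± 0.38 between the conditions (adjusted p = 0.000204 and 0.000895). Tlr3, a sensor of double-stranded RNA in endosomes, rose by 6.22 ± 0.29 in cone cultures and by 4.70 ± 0.26 in rod cultures. Of 7 feedback inhibitors 2 were higher in cone cultures at day 35, among them Socs3 (1.23 ± 0.23, adjusted p = 0.000584). Of 5 other IRFs 1, Irf5, was higher and 1, Irf4, lower.

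Further genes known to be induced by interferon, none of them members, moved the same way as the module. Of 44 tested from a list of 58, which shares Ifih1 with the sensors, 37 were higher and 0 lower in cone than in rod cultures at day 35, with a median of 1.96 on the log2 scale, and 19 were higher and 1 lower at day 21. Over all genes tested, 7.77% were called higher and 4.51% lower at day 35, and 5.86% and 3.14% at day 21. Which genes of the list passed the filter on low counts only through cone cultures is not given here. The median includes any that did, and their calls are no separate support. From day 0 to day 35, 43 of the list were higher in cone cultures (31.1% of all genes tested), and 28 higher and 2 lower in rod cultures (29.4% and 26.2%). Trim25, a ligase that activates RIG-I, differed by 4.46 ± 0.43 (adjusted p = 1.34e-07), Lgals3bp by 1.96 ± 0.29 and Tor3a by 1.75 ± 0.22 at day 35. Of 19 genes tested from 24 on a wider class I list, 6 were higher in cone than in rod cultures at day 35, among them H2-Q4 (1.85 ± 0.35, adjusted p = 0.000611) and calreticulin, Calr (0.55 ± 0.14, adjusted p = 0.00902). Erap1, which trims peptides, rose by 3.48 ± 0.25 in cone and by 2.39 ± 0.24 in rod cultures. Of 5 class II genes tested, Ctss and Cd74 were higher in cone cultures.

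Markers of microglia and macrophages, the resident and infiltrating phagocytes of neural tissue, moved with the cone minus rod difference. Of 18 such markers tested, 17 were higher in cone than in rod cultures at day 35 (7.77% of all genes tested) and 11 at day 21 (5.86%). Which of these markers passed the filter on low counts only through cone cultures is not given here. For any that did, the filter and the call use the same counts, so the call is no separate support. Their summed level in cone cultures was 14.9 to 26.1 CPM at day 5, 12.4 to 76.4 CPM at day 12, 56.7 to 138 CPM at day 21 and 72.6, 118 and 372 CPM at day 35. Rod cultures held 4.65 to 21.2 CPM, 6.93 to 28.4 CPM, 4.56 to 10.5 CPM and 6.07 to 12.0 CPM on those days, and untreated cells 3.67 to 4.73 CPM. None of the 20 listed genes was at 0 in cone or rod cultures at day 35, including Cx3cr1, Csf1r and C1qa.

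In cone cultures at days 12 and 35 the libraries were ordered differently for members and for these markers. The order in the other groups is not listed here, although their sums are points in the plot of member against marker sums. The same or another order may hold there, and each order rests on 3 libraries. These orders therefore do not measure the part of these cells in the levels of the members. In cone cultures at day 35 the members summed to 1503, 977 and 1361 CPM in libraries 1, 2 and 3, in which the microglia and macrophage markers summed to 72.6, 118 and 372 CPM. Library 1 had the most member reads and the fewest of these marker reads at that day. In cone cultures at day 12 the members held 350, 303 and 324 CPM where the markers held 76.4, 43.1 and 12.4 CPM, so that library 1 had the most of both. In rod cultures 1 of the 18 markers (Cd68) and 30 of 35 members rose from day 0 to day 35, where 29.4% of all genes tested were called higher. The part of these cells in the levels of the members was not tested. Lymphocyte markers were near 0, at 0.0807 to 0.515 CPM in cone and 0 to 0.0646 CPM in rod cultures at day 35.

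**Figure D4:**
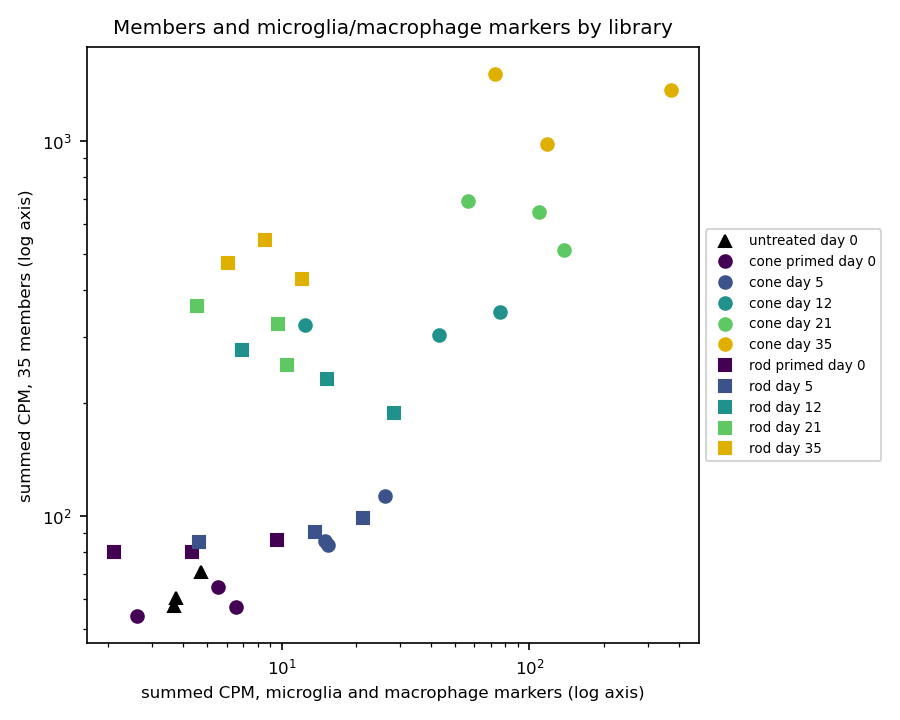
Summed CPM of the 35 members (vertical) against summed CPM of the microglia and macrophage markers (horizontal), on log axes, with 1 point per library. Rod libraries lie between 80.0 and 542 CPM on the vertical axis and between 2.12 and 28.4 CPM on the horizontal axis. The 3 cone libraries at day 35 spread from 72.6 to 372 CPM on the horizontal axis.

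Mesenchymal and mural cell markers also rose in culture. All 10 rose from day 0 to day 35 in both conditions, and 6 of 10 were higher in cone than in rod cultures at day 35. Over all genes tested, 31.1% were called higher and 26.5% lower from day 0 in cone cultures, and 29.4% and 26.2% in rod cultures. Between the conditions at day 35, 7.77% were called higher and 4.51% lower. The 10 markers summed to 4269, 1764 and 4751 CPM in the cone libraries and to 724, 1422 and 1232 CPM in the rod libraries at day 35. Cone library 2 was the lowest of its group for these markers and for the members. In rod library 1, the lowest for these markers, many members were the highest of the group, among them H2-K1, Tap1, Irf9 and Oasl2. Others were the lowest, among them B2m, Ifit2, Irgm1 and Ifitm2. The member sums of the single rod libraries at day 35 are not listed here. Of 10 Muller glia markers, 8 rose and 1 fell in cone cultures and 7 rose and 1 fell in rod cultures from day 0 to day 35, and between the conditions 1 was higher and 1 lower in cone cultures at day 35. The part of the microglia, mesenchymal and glial markers in the levels of the members was not tested.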

How the data were processed

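Per the labels, RNA from low cell input was made into libraries with Takara kits, and the submitters' processing notes name HISAT2, StringTie, HTSeq and GRCm38 without roles or versions. The authors deposited raw counts per gene, 1 file per library, and TPM values per library. The deposited TPM lists 0 for 52.5% of member values with 10 or more counts (37.6% over all genes). It ranks genes unlike the counts (Spearman 0.152 to 0.289), so it is uncertain whether TPM values stand beside the right gene names. TPM values served only as an alternative, but gene symbols and positions were taken from the same TPM files. All 35 member gene IDs are in the GENCODE M21 annotation. Of the 35 positions, 25 are the same there, and those of H2-K1 and Stat2 are not. No file header states the strand setting.

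Counts were fitted with edgeR 4.0.16 (R 4.3.3): TMM scaling, filterByExpr with a minimum count of 10, quasi-likelihood F test over all 33 libraries with 1 coefficient per group, Benjamini-Hochberg adjustment over 18150 genes and a threshold of 0.05, for 17 comparisons. Adjusted p-values in the text are from this test unless another is named, and ± is the SE of the log2 fold change. Genes took 26.9% to 34.9% of reads. A group with under 4 counts gets no fitted fold: a lower bound against 3 counts over the group, or the ratio with its 95% counting interval, is given. Reads carry no molecular identifiers in the sources used here, so intervals and floors cover counting error only. The script was tested on simulated data. No identical libraries were found (lowest correlation within a group 0.931).

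Members and lists were chosen with earlier results of these data known. In each comparison up to 4 called members per direction with the largest change were named, plus B2m, H2-K1, Tap1, Psmb8, Nlrc5, Irf1, Irf7, Irf9, Stat2, Ifit3, Isg15, Bst2, Gbp2 and Irgm1. Of other lists, up to 3 called genes with the smallest p in the mean of days or from day 0 to 35 were named. Other genes given with values were chosen after their values were seen. Alternatives were DESeq2 1.42.0, its size factors in edgeR, no filter, a replicate block, the compared libraries alone, limma 3.58.1 on log2(TPM + 1) and log2(TPM + 0.1), and each library left out. Values from TPM were kept, by a rule chosen after seeing the data, only where no compared library with 10 or more counts is listed at 0. The list of kinases and STATs is not reported here as a whole.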

Additional observations from a re-analysis of the deposited data

Results flagged for a closer look

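The cone minus rod difference changed between days 0, 5, 12, 21 and 35 for 18 members in the F test of the edgeR fit. The adjusted p-values were 1.07e-06 for B2m, 5.11e-05 for Oasl2, 5.96e-05 for H2-K1, 0.00107 for Stat2, 0.00193 for Irgm1, 0.00233 for Irf7, 0.0026 for Xaf1, 0.00408 for H2-D1, 0.00593 for Tapbp and 0.00682 for Usp18. They were 0.0161 for Parp14, 0.0168 for Irf9, 0.0172 for Ifit2, 0.0188 for Ifi35, 0.0241 for Tap1, 0.0327 for Gbp7, 0.0465 for Isg15 and 0.0478 for Ifit1. The calls of Isg15 and Ifit1 were lost without any 1 of 22 and any 1 of 20 libraries.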

How the results depend on the processing

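Of 322 called member values, 320 kept direction and call with DESeq2 size factors in edgeR, 322 with DESeq2, 314 without the filter and 285 with only the libraries compared, and none reversed in these fits. Members called moved to 3 (rod primed minus untreated), 0 (cone minus rod, day 12) and 5 (cone day 5 minus primed) with only the libraries compared, to 5 (cone minus rod, day 0) with DESeq2 and to 2 (rod day 5 minus primed) without the filter. Leaving out 1 library gave 3 to 6 members for rod primed minus untreated, 0 to 0 for cone primed, 3 to 4, 4 to 7, 4 to 10, 18 to 23 and 25 to 30 for cone minus rod at days 0, 5, 12, 21 and 35, and 20 to 25 for the mean of days. It gave 6 to 9, 30 to 31, 32 to 33 and 35 to 35 in cone cultures, 1 to 4, 24 to 27, 26 to 30 and 29 to 31 in rod cultures at days 5, 12, 21 and 35, and 13 to 20 for the change with day. The replicate block gave 0 members for cone primed, 6 for rod primed, 4, 9, 14, 26 and 30 for cone minus rod by day, 25 for the mean, 9, 31, 33 and 35 in cone cultures, 5, 27, 31 and 31 in rod cultures and 18 for the change. Replicate numbers did not pair the samples: no comparison had all 3 same-number correlations over 0.1, and rod primed minus untreated was the only one where each sample correlated best with its own number. The block changed 1 of 322 calls.

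With log2(TPM + 1) and log2(TPM + 0.1), limma called 1 and 1 members for rod primed, 0 and 1, 0 and 0, 0 and 0, 1 and 0, and 2 and 1 for cone minus rod at days 0 to 35, 1 and 1 for the mean, 3 and 3, 5 and 5, 6 and 9, and 12 and 12 in cone cultures, 0 and 0, 1 and 2, 3 and 3, and 2 and 4 in rod cultures, and 2 and 1 for the change. Calls over all genes were few too, 46 and 58 for rod primed against 1864 from the counts, and 34 and 24 for cone minus rod at day 35 against 2229. Of the 322 called values, 33 and 34 had the other sign in TPM. By the rule chosen after seeing the data 88 could be given, of which 22 and 25 kept their call, 58 and 54 lost it and 8 and 9 reversed. At day 21 these were Tapbp (-0.10 and -0.11), Ifit1 (-0.082 and -0.13), Usp18 (-0.65 and -0.72) and, with 0.1 alone, Irf7 (-0.15). For Isg15, cone minus rod, day 35, they were -0.31 and -0.0715, and at that day Usp18 gave -0.28 and -0.32. Others were, for the mean, Tapbp (-0.049 and -0.057), and in rod cultures at day 35 H2-T23 (-0.056 and -0.22) and Ifi35 (-0.35 and -0.48). The cause was not tested. Members with few counts before day 12 limit what could be detected there.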
